A study of Mus musculus with 33 samples.

Results

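Interferon response genes are a set of 38 listed mouse genes whose transcripts are induced by interferons, described here in the thymus. Of these, 36 had a probe set that the array annotation ties to that gene alone, and all 36 passed the filter on low signals among 13463 genes tested. They were covered by 51 of the 45037 probe sets on the array; 24 genes had 1 probe set and 12 had several, in which case the probe set with the highest mean stood for the gene. Isg15, whose only probe set carries more than 1 gene symbol, and Ifi44, which was not matched to a probe set, were not analysed here.

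Gene expression was measured on 33 Affymetrix arrays, 1 sample each, with RNA from C57BL6 mice, given as C57bl6/J in the sample descriptions, of 4 to 6 weeks that were labelled male and for which no treatment or genetic change is named. Microdissected tissue gave 23 arrays: subcapsular, central and perimedullary cortex (n = 3 each), whole cortex (n = 7) and whole medulla (n = 7). Sorted cells gave 10 arrays: cortical thymocytes (n = 5), which were CD45+, CD3-/lo and also CD90+ or CD117+, and medullary thymocytes (n = 5), which were CD45+ and CD3hi. These n hold for every mean ± SD given here. The gates select by maturity and not by position, and since dissected tissue and sorted cells had different extraction kits, an effect of the kit cannot be told apart from one of the sample type. The labels name biological replicates but do not tie regions to animals, so some regions may share an animal. The fit took all arrays as independent, and p-values over such regions may then be inexact.

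Interferons signal through cell surface receptors and Janus kinases to transcription factors, among them Stat2 and Irf9, which act in a complex at the interferon-stimulated response element of target promoters. The products of the target genes sense foreign nucleic acid, degrade or block viral RNA, restrict intracellular microbes, modify proteins and adjust the response itself. In the thymus, developing T cells mature in the cortex and then move to the medulla, and medullary epithelial cells are known as a source of type I interferon without infection.

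Promoter sequence is shown for 5 members because, among the 13 members that hold the response element core within the 250 bases before the start, these had the largest differences between sorted medullary and cortical thymocytes. Each line gives these 250 bases before the annotated start, 5′ to 3′ on the strand of the gene, from RefSeq for GRCm38.p6, and capitals mark the element's core, searched on both strands as GAAA, then any 2 bases, then GAAA. The windows lie at chr19:34640639-34640888 (+) for Ifit1, chr19:34583279-34583528 (+) for Ifit3, chr12:26456453-26456702 (-) for Rsad2, chr5:120777660-120777909 (-) for Oas3 and chr7:104465194-104465443 (-) for Trim30a, which has 2 listed starts.
Ifit1: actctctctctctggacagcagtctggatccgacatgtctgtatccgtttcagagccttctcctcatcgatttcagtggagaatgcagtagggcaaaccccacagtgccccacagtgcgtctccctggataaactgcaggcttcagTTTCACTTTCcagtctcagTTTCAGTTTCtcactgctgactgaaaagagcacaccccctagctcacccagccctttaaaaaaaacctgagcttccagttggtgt
Ifit3: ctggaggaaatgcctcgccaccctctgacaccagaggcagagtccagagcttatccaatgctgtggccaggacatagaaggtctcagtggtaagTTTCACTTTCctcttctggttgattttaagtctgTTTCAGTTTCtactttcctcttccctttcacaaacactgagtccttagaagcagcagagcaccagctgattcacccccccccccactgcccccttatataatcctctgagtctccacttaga
Rsad2: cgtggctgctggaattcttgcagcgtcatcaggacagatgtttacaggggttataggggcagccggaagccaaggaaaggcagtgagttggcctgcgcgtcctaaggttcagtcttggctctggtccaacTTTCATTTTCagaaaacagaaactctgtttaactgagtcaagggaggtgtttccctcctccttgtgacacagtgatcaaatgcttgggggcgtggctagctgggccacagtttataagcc
Oas3: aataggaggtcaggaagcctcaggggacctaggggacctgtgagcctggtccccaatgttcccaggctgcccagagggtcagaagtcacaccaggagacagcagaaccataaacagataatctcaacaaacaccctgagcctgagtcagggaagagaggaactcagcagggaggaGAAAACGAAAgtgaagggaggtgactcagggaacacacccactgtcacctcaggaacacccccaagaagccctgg
Trim30a: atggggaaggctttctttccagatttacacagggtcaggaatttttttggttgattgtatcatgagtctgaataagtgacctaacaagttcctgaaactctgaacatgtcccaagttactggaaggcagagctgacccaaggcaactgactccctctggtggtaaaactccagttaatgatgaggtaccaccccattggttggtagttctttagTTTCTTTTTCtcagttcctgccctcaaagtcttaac
Ifit1 and Ifit3, which stand on the same chromosome, both held the core in the forms TTTCACTTTC and TTTCAGTTTC. Windows of 300 bases, from 250 before to 50 after the start, were listed for 26 of the 36 members, and 15 of the 26 (57.7%) held the core, against 3.99% of 27025 genes with a window. The gamma-activated site TTCNNNGAA, searched in the same way on both strands, was in 8 of the 26 (30.8%), against 9.55% of the genes. Stat2 and Ifitm3 held the core, whereas Ubd, Isg20 and Ifit2 did not within this window. A match is a run of letters and not a measured binding site.

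Before the results, the sex label of some arrays has to be set apart. Signal of Xist, the RNA of the inactive X chromosome, was 9826 to 15198 on all 9 arrays of cortical subregions and at most 51.4 on the other 24. The Y-linked Eif2s3y was 1.47 to 24.0 on the 3 central cortex arrays, 482 to 1149 on the subcapsular and perimedullary arrays and 1725 to 3390 elsewhere, so the subregion arrays go against the label male. In comparisons with the central cortex, the region and the sex of the RNA cannot be told apart, and since all subregion arrays are affected, no subregion value without them exists. Without these 9 arrays, no call of a member changed in the other comparisons (180 of 180 values). On 13 arrays (whole cortex 1 to 5, whole medulla 1 to 5 and medullary thymocytes 1 to 3) the upper tail of the signal was wider than on the rest.

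Signals are on the deposited linear scale. A log2 fold change is a difference of group means of log2(signal + 26.2), which understates the change of weak signals, and it was fitted with limma over all arrays and genes. A gene rose or fell where its adjusted p (Benjamini-Hochberg over 13463 genes, 2-sided) was below 0.05 and its log2 fold change at least 1 in size.

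The question of the compartment comparison is how the medulla differs from the cortex, in tissue and in thymocytes alone. Nearly the whole set was higher in the medulla: 32 of 36 members rose in whole medulla against whole cortex and 0 fell, where 18.7% of all genes rose and 5.39% fell. The median log2 fold change of the members was 2.51, against 0.11 over all genes tested. In sorted medullary against cortical thymocytes 32 members also rose and 0 fell, where 7.69% of all genes rose and 6.31% fell, with a median of 2.68 against 0.07. Arrays of whole medulla lay above all arrays of whole cortex for 33 members and below them for Isg20, where 19.1% and 10.8% of all genes were so separated. Those of medullary thymocytes lay above all of cortical thymocytes for 34 members, where 16.7% of all genes did. In dissected tissue, fewer cells of a type and less RNA per cell cannot be told apart.

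**Figure D1:**
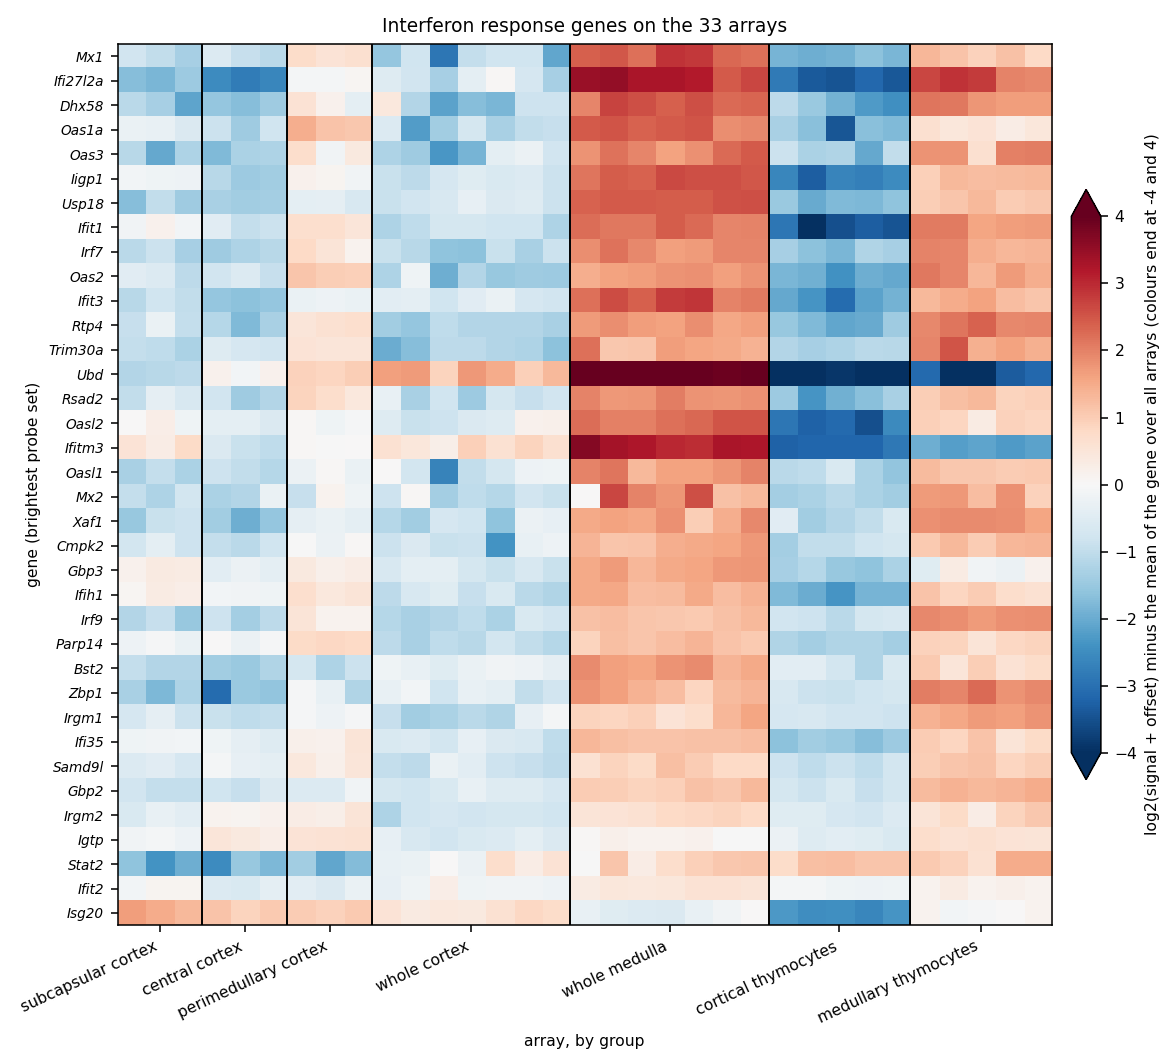
Each row is a gene and each column an array, ordered by group; the colour is log2(signal + offset) minus the mean of that gene over all 33 arrays, and colours end at -4 and 4. Most of the 36 genes are red in whole medulla and medullary thymocytes and blue in cortical thymocytes, while Ubd and Ifitm3 are blue in both kinds of sorted cells and Isg20 is blue in cortical thymocytes and reddest in subcapsular cortex.

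Among the transcription factors, Irf7, which drives further interferon production, rose in both comparisons. Its mean signal was 263 ± 62.9 in whole cortex and 2370 ± 302 in whole medulla, and 210 ± 41.5 in cortical and 1977 ± 458 in medullary thymocytes. The log2 fold changes were 3.07 ± 0.14 (SE) in tissue and 3.07 ± 0.17 in thymocytes (limma adjusted p = 6.5e-20 and 1.4e-17). Irf9, the DNA-binding subunit of the response complex, ranged from 343 to 577 (median 391) in whole cortex and from 1885 to 2241 (median 2029) in whole medulla. On single arrays of sorted cells it was 511, 493, 411, 535 and 559 in cortical and 3463, 3264, 2950, 3190 and 3330 in medullary thymocytes. The groups did not overlap, and the highest Irf9 signals of the series were those of medullary thymocytes (log2 fold change 2.20 ± 0.11 in tissue, 2.63 ± 0.13 in thymocytes). Stat2, the partner of Irf9, did not pass in either comparison. It ranged from 166 to 354 (median 213) in whole cortex and from 209 to 488 (median 428) in whole medulla, and was 366, 522, 531, 480 and 482 in cortical and 466, 425, 334, 629 and 630 in medullary thymocytes. Both pairs of groups overlapped, with log2 fold changes of 0.64 ± 0.20 and 0.03 ± 0.24 (adjusted p = 0.0068 and 0.94, limma).

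All 3 sensors of foreign nucleic acid rose in both comparisons. Dhx58, which encodes the RNA sensor LGP2, ranged from 15.5 to 219 (median 56.0) in whole cortex and from 690 to 1172 (median 936) in whole medulla. In sorted cells it was 63.3, 39.2, 23.0, 12.1 and 7.39 in cortical and 789, 760, 598, 553 and 554 in medullary thymocytes. No array of the low groups reached those of the high groups, and the log2 fold changes were 3.55 ± 0.27 and 3.69 ± 0.31. Ifih1, the sensor MDA5 of long viral RNA, rose by log2 fold changes of 2.24 and 2.84, from means of 532 ± 106 to 2583 ± 256 in tissue and from 231 ± 39.6 to 1808 ± 270 in thymocytes. Zbp1, a sensor of Z-form nucleic acid, ranged from 316 to 599 (median 487) in whole cortex and from 1209 to 2345 (median 1724) in whole medulla. It was 413, 352, 341, 367 and 386 in cortical and 2786, 2577, 3265, 2322 and 2549 in medullary thymocytes, so that groups were again apart (log2 fold changes 1.89 ± 0.19 and 2.77 ± 0.22).

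The IFIT proteins bind viral RNA and hold up its translation. Ifit1 ranged from 370 to 544 (median 501) in whole cortex and from 3544 to 4931 (median 3969) in whole medulla. Among sorted cells it was 97.7, 30.2, 55.1, 67.3 and 58.9 in cortical and 3870, 3876, 2723, 2891 and 2954 in medullary thymocytes. These groups stood far apart, and the log2 fold change was larger in thymocytes (5.25 ± 0.15, rank 12 of 13463) than in tissue (3.08 ± 0.13). Ifit3 rose from 398 ± 58.6 to 3333 ± 813 in tissue and from 103 ± 36.1 to 1546 ± 217 in thymocytes (log2 fold changes 2.96 and 3.65). Ifit2, which neighbours Ifit3 on its chromosome, rose in neither comparison. It ranged from 1165 to 1767 (median 1307) in whole cortex and from 1855 to 2203 (median 2046) in whole medulla, and was 1403, 1414, 1315, 1275 and 1320 in cortical and 1646, 1854, 1646, 1702 and 1649 in medullary thymocytes. Its groups did not overlap, but the log2 fold changes of 0.61 ± 0.08 and 0.33 ± 0.09 stayed under 1.

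All 5 genes of the oligoadenylate synthetase family, whose active synthetases answer viral RNA by activating RNase L, rose in both comparisons. Oas1a ranged from 107 to 410 (median 292) in whole cortex and from 2289 to 3589 (median 3424) in whole medulla, and was 233, 171, 32.3, 170 and 160 in cortical and 950, 845, 902, 759 and 834 in medullary thymocytes. Oas2 ranged from 51.5 to 238 (median 84.8) and from 801 to 1032 (median 937) in the same tissues, and was 58.9, 53.2, 29.8, 51.4 and 47.0 in cortical and 1258, 1145, 730, 941 and 798 in medullary thymocytes. Their groups did not overlap, with log2 fold changes of 3.45 ± 0.22 and 2.45 ± 0.27 for Oas1a and 2.96 ± 0.17 and 3.74 ± 0.20 for Oas2. Oas3, the neighbour of Oas2, ranged from 9.19 to 125 (median 49.5) in whole cortex and from 516 to 959 (median 672) in whole medulla, and was 72.0, 48.1, 50.9, 17.0 and 64.7 in cortical and 592, 595, 251, 706 and 709 in medullary thymocytes. The third medullary thymocyte array was the low one, and the log2 fold changes were 3.19 ± 0.27 and 2.93 ± 0.32. The synthetase-like genes Oasl1 and Oasl2, also neighbours, rose from 153 ± 78.3 to 906 ± 185 and from 517 ± 177 to 3368 ± 499 in tissue. In thymocytes they rose from 102 ± 31.3 to 550 ± 43.9 and from 60.0 ± 22.2 to 1201 ± 200.

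Mx1, a gene of the dynamin-like GTPase family, had the largest tissue difference of the set. It ranged from 2.34 to 95.2 (median 81.5) in whole cortex and from 944 to 1519 (median 1069) in whole medulla, and was 31.0, 27.8, 29.7, 41.3 and 32.2 in cortical and 495, 440, 374, 441 and 340 in medullary thymocytes. The groups did not overlap (log2 fold change 3.88 ± 0.22, adjusted p = 4.3e-17, in tissue and 2.92 ± 0.26, adjusted p = 1.4e-11, in thymocytes; limma). Mx2, its cytoplasmic relative, was weaker, with means of 18.7 ± 16.4 and 254 ± 151 in tissue and 5.95 ± 2.75 and 197 ± 54.7 in thymocytes. Its highest whole cortex array (54.1) lay above its lowest whole medulla array (51.7), although the gene rose (log2 fold change 2.49 ± 0.29).

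The interferon-inducible GTPases act on the membranes of vacuoles that hold microbes. Of these 6, 5 rose in tissue and 6 in thymocytes. Iigp1, an effector of the family, ranged from 474 to 715 (median 624) in whole cortex and from 4535 to 6391 (median 5695) in whole medulla. It was 144, 79.0, 139, 129 and 152 in cortical and 1976, 2499, 2383, 2451 and 2511 in medullary thymocytes, with every array of the second group above those of the first (log2 fold changes 3.18 ± 0.11 and 3.97 ± 0.13). Irgm1, a regulator of the family, ranged from 341 to 879 (median 435) and from 1382 to 2873 (median 1755) in whole cortex and medulla, and was 582, 592, 543, 546 and 520 in cortical and 2531, 2787, 3096, 2977 and 3360 in medullary thymocytes. It too was separated by array (1.88 ± 0.15 and 2.35 ± 0.18). The other two regulators are neighbours: Irgm2 rose from 468 ± 61.8 to 1390 ± 145 in tissue and from 545 ± 50.3 to 1398 ± 297 in thymocytes, while Igtp had a tissue log2 fold change of only 0.65 (2974 ± 323 and 4675 ± 307) and rose in thymocytes by 1.05, from 3187 ± 304 to 6606 ± 380. Igtp was not called in thymocytes on the arrays outside the wide-tail set alone (0.98). Of the guanylate-binding proteins, which help to break such vacuoles, Gbp2 rose from 869 ± 105 to 2751 ± 270 in tissue and from 768 ± 67.6 to 3401 ± 220 in thymocytes, and Gbp3 from 234 ± 37.6 to 1201 ± 127 and from 131 ± 20.3 to 366 ± 86.9.

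The genes tied to ubiquitin-like modifiers split. Usp18, the protease that removes Isg15 and dampens receptor signalling, rose from 521 ± 78.7 to 4677 ± 275 in tissue and from 233 ± 36.4 to 1813 ± 166 in thymocytes (log2 fold changes 3.11 and 2.84). Ubd, the ubiquitin-like protein FAT10 that marks proteins for the proteasome, ranged from 1321 to 2348 (median 2008) in whole cortex and from 10924 to 20460 (median 14078) in whole medulla. In sorted cells it was low, at 14.9, 5.61, 22.1, 5.64 and 17.3 in cortical and 57.4, 17.2, 6.26, 45.0 and 55.5 in medullary thymocytes. The sorted groups overlapped, and Ubd rose in tissue (2.87 ± 0.17) but not in thymocytes (0.59 ± 0.20, adjusted p = 0.018, limma).

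Of the membrane proteins, Bst2, the tetherin that holds budding virus at the cell surface, rose from 670 ± 56.2 to 2662 ± 379 in tissue and from 509 ± 111 to 1417 ± 244 in thymocytes. Ifitm3, which blocks entry of virus from endosomes, ranged from 2656 to 4341 (median 3401) in whole cortex and from 17391 to 28433 (median 21118) in whole medulla. Sorted cells gave 215, 225, 225, 226 and 283 in the cortical and 555, 461, 498, 446 and 488 in the medullary group. All groups were apart, and the log2 fold change of 2.61 ± 0.10 in tissue passed, whereas that of 0.99 ± 0.12 in thymocytes fell just under 1; it was 1.05 without cortical thymocytes replicate 5, 1.005 without medullary thymocytes replicate 2 and 1.02 without medullary thymocytes replicate 4, past the threshold.

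Among the other effectors, Ifi27l2a, a gene of the interferon-inducible Ifi27 family, had the largest thymocyte difference of the set (rank 6 of 13463). It ranged from 1118 to 2956 (median 1777) in whole cortex and from 15844 to 33377 (median 27750) in whole medulla, and was 386, 257, 241, 303 and 249 in cortical and 18309, 21409, 20254, 11535 and 10967 in medullary thymocytes. Medullary arrays were far above cortical ones throughout (log2 fold changes 3.83 ± 0.18 and 5.68 ± 0.21). Isg20, an exonuclease that degrades RNA, was the exception in tissue. It ranged from 2638 to 3639 (median 2989) in whole cortex and from 1360 to 2070 (median 1641) in whole medulla, and was 390, 343, 353, 312 and 372 in cortical and 2231, 1880, 1955, 2067 and 2225 in medullary thymocytes. Whole medulla was therefore below whole cortex on every array, with a log2 fold change of -0.88 ± 0.09 that did not reach the threshold, while medullary thymocytes were above cortical ones (2.46 ± 0.11, adjusted p = 2.0e-20, limma).

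The remaining 8 effectors rose in both comparisons. Rsad2, the viperin that makes a chain-ending nucleotide, rose from 336 ± 96.7 to 2321 ± 208 in tissue and from 175 ± 54.8 to 1339 ± 164 in thymocytes. Its neighbour Cmpk2, a mitochondrial nucleotide kinase, rose from 146 ± 65.1 to 754 ± 122 and from 123 ± 24.5 to 644 ± 78.2. Rtp4, a receptor transporter protein, rose from 777 ± 94.7 to 6206 ± 527 and from 545 ± 116 to 8015 ± 1125. The tripartite motif gene Trim30a rose as well, from 1123 ± 275 to 8653 ± 2501 and from 1277 ± 91.1 to 10690 ± 3838. Xaf1, which promotes cell death, rose from 445 ± 164 to 2451 ± 490 and from 425 ± 122 to 2877 ± 253. Parp14, an ADP-ribosyltransferase, rose from 636 ± 79.0 to 3008 ± 302 and from 544 ± 32.0 to 2364 ± 256. Log2 fold changes of these 6 genes lay between 2.06 and 3.83. Samd9l, an antiviral and growth-restraining factor, rose from 1529 ± 360 to 4818 ± 654 and from 1390 ± 112 to 5329 ± 458. Ifi35 rose from 3608 ± 518 to 12801 ± 600 and from 1907 ± 181 to 10190 ± 1648.

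**Figure D2:**
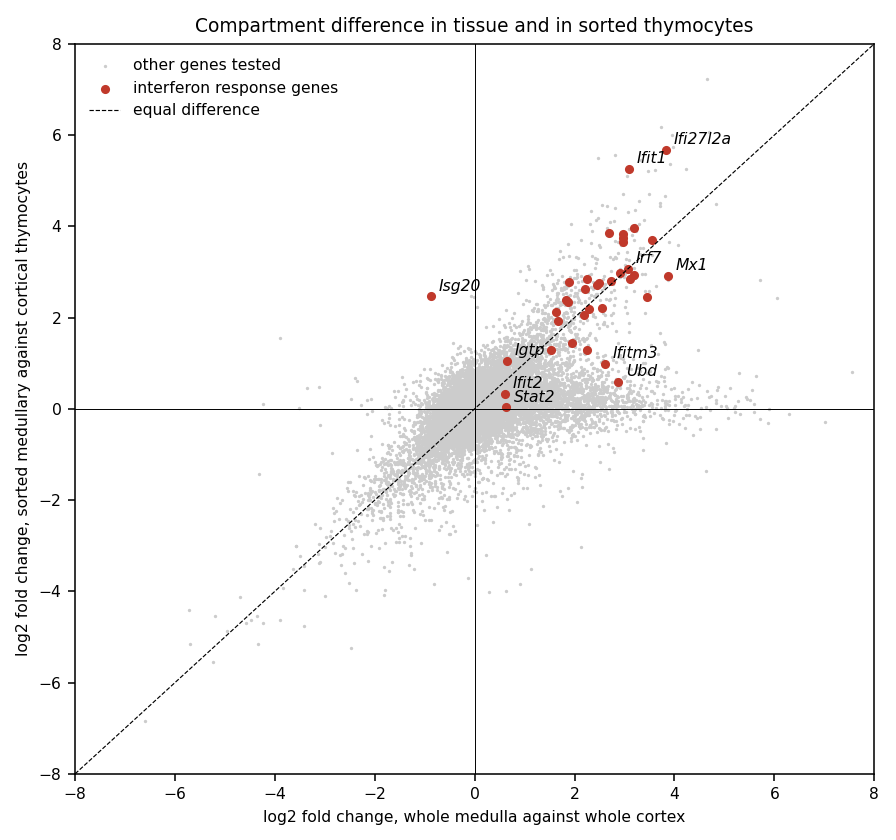
Each point is 1 of 13463 genes; the x axis is the log2 fold change of whole medulla against whole cortex and the y axis that of sorted medullary against sorted cortical thymocytes, with interferon response genes in red and equal differences on the dashed line. Most red points lie in the upper right; Isg20 lies left of zero at -0.88, and Ubd and Ifitm3 lie low on the right, at thymocyte values of 0.59 and 0.99.

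The difference between both compartment differences was tested as an interaction, tissue minus thymocytes. It was called for 2 members in the positive direction and 4 in the negative, where 12.8% and 2.22% of all genes were called. Ubd (2.28 ± 0.26, adjusted p = 1.5e-08) and Ifitm3 (1.63 ± 0.16, adjusted p = 3.9e-10) differed more between compartments in tissue. Isg20 (-3.35 ± 0.14), Ifit1 (-2.17 ± 0.20), Ifi27l2a (-1.85 ± 0.28) and Oasl2 (-1.16 ± 0.24) differed more in thymocytes (limma adjusted p from 9.9e-20 to 0.00022). The other 30 members were not called, with a median over all 36 of -0.20 against 0.03 for all genes. Of these 30, 14 had an adjusted p below 0.05 (limma) with a log2 difference under 1 in size. Among them were Oas1a (0.995 ± 0.35), Mx1 (0.96 ± 0.35), Oas2 (-0.78 ± 0.27) and Ifit3 (-0.69 ± 0.23). For Irf7 the interaction was 0.00 with a 95% interval of -0.44 to 0.45, and for Dhx58 it was -0.15 with an interval of -0.98 to 0.69. Positive calls numbered 4 without any of medullary thymocytes replicate 1, whole cortex replicate 4, whole cortex replicate 6 or whole medulla replicate 7, where Mx1 and Oas1a crossed a log2 fold change of 1, and 5 with quantile normalization, which also left Oasl2 at -0.84.

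Markers of other cells moved with the tissue comparison. In whole medulla against whole cortex, 9 of 9 dendritic cell genes and 6 of 7 medullary epithelial genes rose, and in thymocytes 1 of 9 and 0 of 7, where 1 medullary epithelial gene fell. In the tissue comparison 3 of 5 B cell, 4 of 6 mesenchymal and 2 of 4 endothelial genes also rose. Of 10 macrophage genes 3 rose and 2 fell, and of 4 neutrophil genes 2 fell. Summed over the list, dendritic cell signal was 945 to 1368 in whole cortex, 26204 to 44741 in whole medulla, 148 to 359 in cortical and 380 to 626 in medullary thymocytes; medullary epithelial signal was 888 to 1469, 14496 to 16543, 417 to 637 and 275 to 402. Markers of mature thymocytes rose in 5 of 5 in both comparisons (2680 to 3929, 33202 to 41647, 960 to 1175 and 48158 to 65936). In the interaction, 5 of 5 of these markers were called in the negative direction, with a median of -1.81, as were the 4 members named above. Of all genes, 2.22% were so called. Of 7 genes of plasmacytoid dendritic cells, which make much interferon, 2 rose and 1 fell in tissue and 1 rose and 1 fell in thymocytes, and 3 were higher and 1 lower in whole medulla than in medullary thymocytes. Their summed signal was 27441 to 40970 in whole cortex, 13274 to 16871 in whole medulla, 20771 to 25084 in cortical and 19629 to 27647 in medullary thymocytes, and Siglech, their defining marker, was at most 157 on any array. Since the sum was this high in sorted thymocytes too, it does not measure the amount of plasmacytoid dendritic cells. Cortical epithelial genes, 6 of 6, were higher in whole cortex than in cortical thymocytes, and 6 of 6 genes of double-positive thymocytes were lower in whole medulla than in whole cortex, as the tissue labels have it. The part of these cells in the member differences was not tested.

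The share of a tissue signal that sorted thymocytes reach was taken as the ratio of mean signals, sorted cells over whole tissue of the same compartment, in percent. It is not a fraction of RNA, since each array was scaled on its own, and it can exceed 100. The median of the members was 61.2% in the cortex and 79.5% in the medulla, against 90.3% and 96.5% over all genes. Values under 50% were found for 13 members in the cortex and 9 in the medulla, where 16.9% and 21.7% of all genes lay. Values over 100% were found for 6 members in the cortex and 13 in the medulla, where 39.7% and 46.4% of all genes lay.

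The lowest shares were those of Ubd, at 0.69% in the cortex and 0.26% in the medulla, and of Ifitm3, at 6.70% and 2.27%. In the cortex they were followed by Oasl2 (11.6%), Isg20 (11.7%), Ifit1 (13.3%), Ifi27l2a (15.7%), Iigp1 (21.4%) and Ifit3 (25.8%). Of these, Isg20 and Ifit1 reached 127% and 79.3% in the medulla, so the share of both genes differed widely between compartments. In the medulla the low shares after Ubd and Ifitm3 were those of Oas1a (27.4%), Gbp3 (30.4%), Oasl2 (35.7%), Mx1 (36.1%), Usp18 (38.8%), Iigp1 (41.8%) and Ifit3 (46.4%). At the other end stood Stat2 (200%) in the cortex and Irf9 (160%), Zbp1 (154%), Irgm1 (153%) and Igtp (141%) in the medulla.

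Tested gene by gene, 10 members were higher in whole cortex than in cortical thymocytes and 0 lower, where 9.64% and 1.52% of all genes were called. The median log2 fold change was 0.43 against 0.10. Ubd (5.60 ± 0.19), Ifitm3 (3.75 ± 0.11), Isg20 (3.00 ± 0.10), Oasl2 (2.63 ± 0.17), Ifi27l2a (2.52 ± 0.20), Ifit1 (2.51 ± 0.14), Iigp1 (2.03 ± 0.12), Ifit3 (1.76 ± 0.16), Ifih1 (1.11 ± 0.12) and Usp18 (1.08 ± 0.11) were called. Whole cortex arrays lay above all cortical thymocyte arrays for 12 members, where 12.7% of all genes did, and below them for Stat2 alone, where 7.41% did. Stat2, at -0.97 ± 0.22, lay just inside the threshold and was called lower (-1.05 to -1.06) without cortical thymocytes replicate 1, whole cortex replicate 5 or whole cortex replicate 7. In whole medulla against medullary thymocytes 9 members were higher and 0 lower, where 19.5% and 1.23% of all genes were called, with a median of 0.34 against 0.04. These were Ubd (7.88 ± 0.19), Ifitm3 (5.37 ± 0.11), Oas1a (1.82 ± 0.25), Gbp3 (1.67 ± 0.13), Oasl2 (1.47 ± 0.17), Mx1 (1.40 ± 0.24), Usp18 (1.36 ± 0.11), Iigp1 (1.25 ± 0.12) and Ifit3 (1.07 ± 0.16; 0.995 and not called without whole medulla replicate 5). On the arrays outside the wide-tail set alone, Ifit3 (0.87) in the medulla and Ifih1 (0.82) in the cortex were not called. On the other side, Irf9 (-0.67 ± 0.12), Irgm1 (-0.64 ± 0.17), Zbp1 (-0.63 ± 0.21) and Igtp (-0.50 ± 0.08) had lower values in whole medulla than in medullary thymocytes without reaching the threshold. Whole medulla arrays lay above all medullary thymocyte arrays for 15 members, where 21.3% of all genes did. Arrays of Irf9, Igtp and Rtp4 in whole medulla all lay below those of medullary thymocytes, where 7.75% of all genes did.

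**Figure D3:**
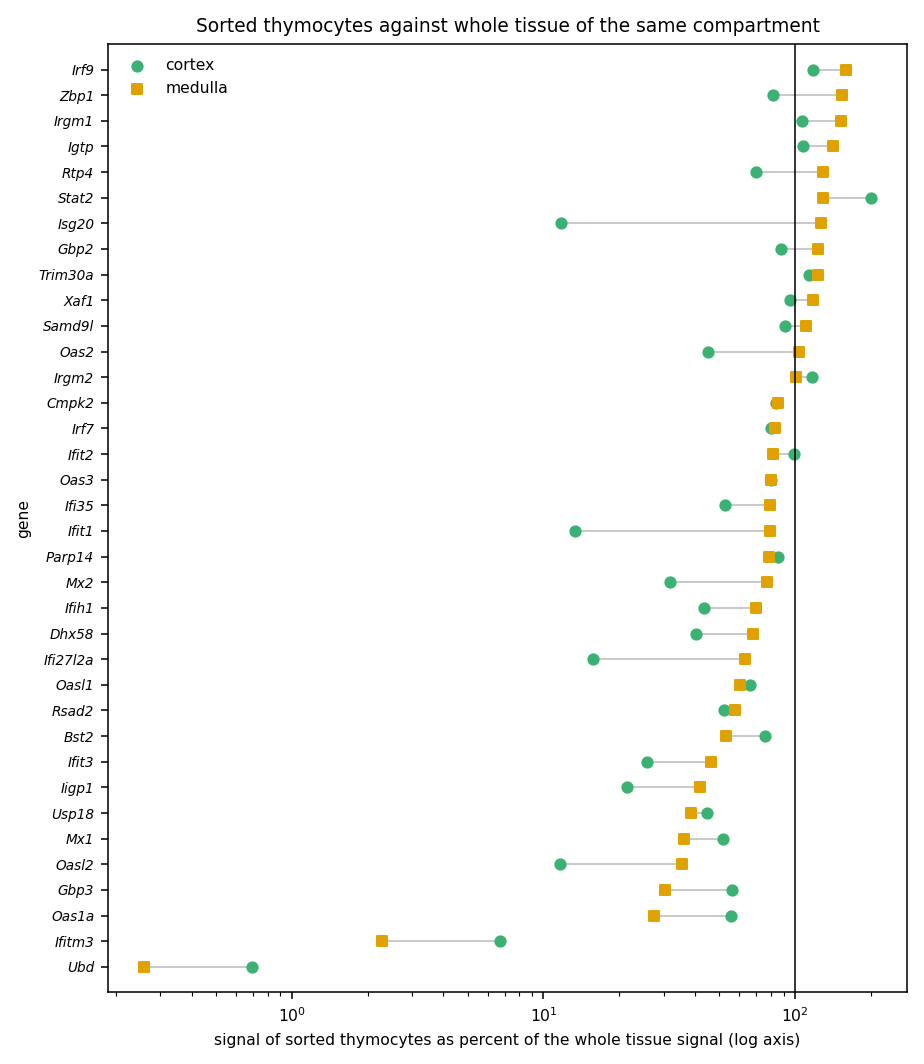
For each of the 36 genes, the x axis (log) gives the mean signal of sorted thymocytes as a percent of the mean signal of whole tissue, in the cortex (circles) and in the medulla (squares), and the vertical line marks 100%. Ubd and Ifitm3 stand apart at 0.26% to 6.70%, and Isg20, Ifit1 and Ifi27l2a have the widest gaps between cortex and medulla on the log axis.

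The subregion arrays were compared to order the 3 parts of the cortex, from the capsule to the border with the medulla. The perimedullary part had the highest mean log2 value for 32 of 36 members, where 34.0% of all genes did, and the central part the lowest for 21, where 24.9% did. The subcapsular mean was highest for 4 members (40.0% of all genes) and the perimedullary mean lowest for 1 (36.6%). The order central, subcapsular, perimedullary from low to high was found for 18 members (11.2% of all genes) and the order subcapsular, central, perimedullary for 14 (22.8%). Subcapsular and central cortex, the neighbours in these orders, were called different for 3 of 36 members. Of these, 1 was higher and 2 were lower in the central part, where 0.446% and 0.876% of all genes were called. Ifit2, Oasl2 and Ifitm3 had their highest mean in the subcapsular and their lowest in the central part, and the mean of Isg20 was highest in the subcapsular and lowest in the perimedullary part.

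Against the central cortex, 16 members rose in the perimedullary cortex and 0 fell, where 1.34% and 0.0371% of all genes did, and against the subcapsular cortex 12 rose and 0 fell, where 2.94% and 1.66% did. The medians were 0.88 and 0.77, against -0.01 and -0.00 over all genes. Perimedullary arrays lay above all central arrays for 31 members (13.9% of all genes) and above all subcapsular arrays for 27 (21.9%). Both transcription factors that rose from cortex to medulla were among them: Irf7 was 278 ± 50.0, 244 ± 28.7 and 884 ± 202 in the subcapsular, central and perimedullary cortex, and Irf9 was 379 ± 79.6, 413 ± 77.3 and 1083 ± 174. On single arrays, Irf9 was 383, 456 and 297, then 488, 333 and 418, then 1284, 991 and 973 in the same order of regions. The perimedullary arrays were the high ones for both (Irf7 1.57 ± 0.21 and Irf9 1.46 ± 0.16 against subcapsular; adjusted p = 1.7e-06 and 4.3e-08, limma). Stat2 was weak in all 3 regions, at 50.9, 18.4 and 35.0, then 15.5, 55.9 and 41.4, then 63.7, 30.3 and 44.9, with overlapping arrays. Every one of these values lay below the whole cortex range of Stat2 given above, although the regions are parts of the cortex. For Isg20 every subregion array lay above the whole cortex range. Signal levels of the subregion arrays are therefore not comparable with those of the other groups.

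Of the oligoadenylate synthetase family, 3 of 5 rose near the medulla against both other regions. Oas1a was 497, 484 and 393 in subcapsular, 323, 209 and 335 in central and 1689, 1381 and 1311 in perimedullary cortex. Oas2 was 194, 177 and 120, then 149, 178 and 131, then 622, 566 and 556. Oas3 was 56.4, 17.5 and 50.5, then 26.0, 47.9 and 50.5, then 264, 135 and 208. For these 3 genes the perimedullary arrays were above all others and the subcapsular and central means were not called different (log2 fold changes against subcapsular 1.62 ± 0.34, 1.70 ± 0.26 and 1.77 ± 0.41; against central 2.25, 1.77 and 1.74). The call of Oas3 against central was lost without central cortex replicate 1 (1.56, adjusted p = 0.077, limma) or perimedullary cortex replicate 1 (1.54, adjusted p = 0.091, limma). Oasl1 (94.4 ± 17.1, 110 ± 15.4 and 219 ± 29.7) missed the threshold at 1.03 ± 0.37 (adjusted p = 0.053, limma, against subcapsular), and Oasl2 (700 ± 113, 488 ± 37.6 and 649 ± 55.4) was not highest near the medulla.

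Mx1 was 96.9, 80.5 and 57.8 in subcapsular, 118, 85.4 and 72.8 in central and 324, 278 and 302 in perimedullary cortex, with the last group above both others (1.66 ± 0.34 against subcapsular, 1.48 ± 0.34 against central). Against central its call was lost without central cortex replicate 3 (1.36, adjusted p = 0.066, limma) or perimedullary cortex replicate 1 (1.43, adjusted p = 0.052, limma), and with an offset of 6.55 (1.66, adjusted p = 0.10, limma). Mx2 was near the lowest signals, at 13.5 ± 6.61, 17.5 ± 18.5 and 38.9 ± 22.6, and was not called. Dhx58 was 61.2, 47.8 and 16.0, then 36.4, 29.7 and 42.2, then 247, 179 and 113, again highest near the medulla (1.61 ± 0.41 and 1.68 ± 0.41). Its call rests on 1 of 3 probe sets, since the mean of the probe sets gave 0.57 (adjusted p = 0.17, limma) against subcapsular and 0.54 (adjusted p = 0.56, limma) against central. It was also lost without subcapsular cortex replicate 3 (1.30) in the first comparison, and without central cortex replicate 2 (1.60), perimedullary cortex replicate 1 (1.45) or perimedullary cortex replicate 2 (1.65) or with quantile normalization (1.46) in the second. Zbp1 was 250, 168 and 261, then 53.7, 218 and 199, then 626, 529 and 271, with a wide spread in the last 2 groups, and rose against central (1.54 ± 0.29) but not against subcapsular (0.93 ± 0.29; past the threshold at 1.01 to 1.27 without subcapsular cortex replicate 1, subcapsular cortex replicate 3 or perimedullary cortex replicate 3). Its call against central was lost with the probe set of plain suffix (0.90) and with a fit of only these groups (adjusted p = 0.084, limma), while the plain suffix gave 1.95 and the mean of the probe sets 1.44 against subcapsular. Ifih1 (1137 ± 96.6, 885 ± 23.3 and 1421 ± 133) was not called in either.

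Ifi27l2a was 871, 790 and 1032 in subcapsular, 486, 387 and 454 in central and 2727, 2715 and 3060 in perimedullary cortex. The 3 regions did not overlap, and the step from central to perimedullary was the largest of the set (2.61 ± 0.28, adjusted p = 3.1e-08, limma), with 1.64 ± 0.28 against subcapsular. Rtp4 (1173 ± 351, 712 ± 161 and 2847 ± 175), Rsad2 (393 ± 89.3, 280 ± 72.3 and 1024 ± 177) and Trim30a (1390 ± 170, 1860 ± 152 and 4210 ± 106) also rose against both other regions, by log2 fold changes between 1.17 and 1.98. With the mean of its probe sets Rsad2 stayed under the threshold against subcapsular (0.95). Xaf1 (376 ± 95.8, 244 ± 50.3 and 627 ± 34.5), Ifit3 (290 ± 35.9, 178 ± 7.11 and 490 ± 18.9) and Ifit1 rose against central alone (1.29, 1.34 and 1.36). Ifit1 was 806, 1025 and 827, then 652, 455 and 483, then 1442, 1457 and 1270, with no overlap between regions. Parp14 (1185 ± 94.4, 1258 ± 118 and 2341 ± 55.6), Samd9l (1757 ± 123, 2159 ± 236 and 3371 ± 351), Usp18 (310 ± 86.3, 309 ± 12.2 and 591 ± 66.6), Cmpk2 (160 ± 29.4, 124 ± 15.5 and 249 ± 26.8) and Ifi35 (5028 ± 89.2, 4369 ± 533 and 6849 ± 975) had their highest means there without a call. Against subcapsular, Usp18 (1.10) and Parp14 (1.03) passed without subcapsular cortex replicate 2, and Samd9l (1.01) without perimedullary cortex replicate 2. The mean of its probe sets put Parp14 past the threshold against both regions (1.26 and 1.04).

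Ubd was 291, 308 and 319 in subcapsular, 778, 648 and 782 in central and 1336, 1284 and 1398 in perimedullary cortex. It rose in the first step (1.19 ± 0.26, adjusted p = 0.0029, limma), and its difference of 2.04 ± 0.26 over both steps was the largest of the set against subcapsular, while the second step alone was not called (0.85 ± 0.26, adjusted p = 0.090). Iigp1 was 929, 880 and 865, then 455, 348 and 366, then 1134, 1086 and 903. The central arrays were the low ones, and Iigp1 was called in both steps, down by a log2 fold change of -1.15 ± 0.16 and up by 1.36 ± 0.16, with 0.21 ± 0.16 between the outer regions. Its first call was not reached with the probe set of plain suffix (-0.89). Ifitm3 was 3306, 2747 and 3791, then 1470, 1204 and 1099, then 2282, 2196 and 2254. It fell from subcapsular to central cortex (-1.36 ± 0.16, adjusted p = 3.1e-07, limma), and the regions did not overlap.

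In central against subcapsular cortex, 1 member rose and 2 fell, where 0.446% and 0.876% of all genes did, and the median was -0.23 against -0.01. Arrays did not overlap for 5 members in the higher and 15 in the lower direction, where 17.9% and 21.1% of all genes were so separated. Ifi27l2a lay just inside the threshold at -0.98 ± 0.28 and was past it without subcapsular cortex replicate 2 (-1.06) or central cortex replicate 1 (-1.04). Ifit2 was 1379, 1583 and 1589, then 994, 955 and 1125, then 1105, 980 and 1220, with the subcapsular arrays highest. Isg20 was 6485, 5729 and 5093, then 4542, 3810 and 4209, then 4152, 3882 and 4229, and its subcapsular arrays were above all others too. Neither was called (perimedullary against subcapsular -0.45 ± 0.12 and -0.49 ± 0.14). Irgm1 was 584, 728 and 509, then 494, 451 and 476, then 904, 817 and 901, highest near the medulla with 0.52 ± 0.24 against subcapsular. Igtp (3953 ± 213, 5690 ± 437 and 6531 ± 166) and Irgm2 (607 ± 70.4, 917 ± 17.9 and 1076 ± 111) had their lowest mean in the subcapsular and their highest in the perimedullary part, with log2 fold changes under 1. Gbp2 (693 ± 52.9, 770 ± 97.9 and 986 ± 164), Gbp3 (467 ± 33.5, 292 ± 21.7 and 470 ± 32.8) and Bst2 (368 ± 34.0, 302 ± 30.0 and 418 ± 82.5) were not called in any step.

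**Figure D4:**
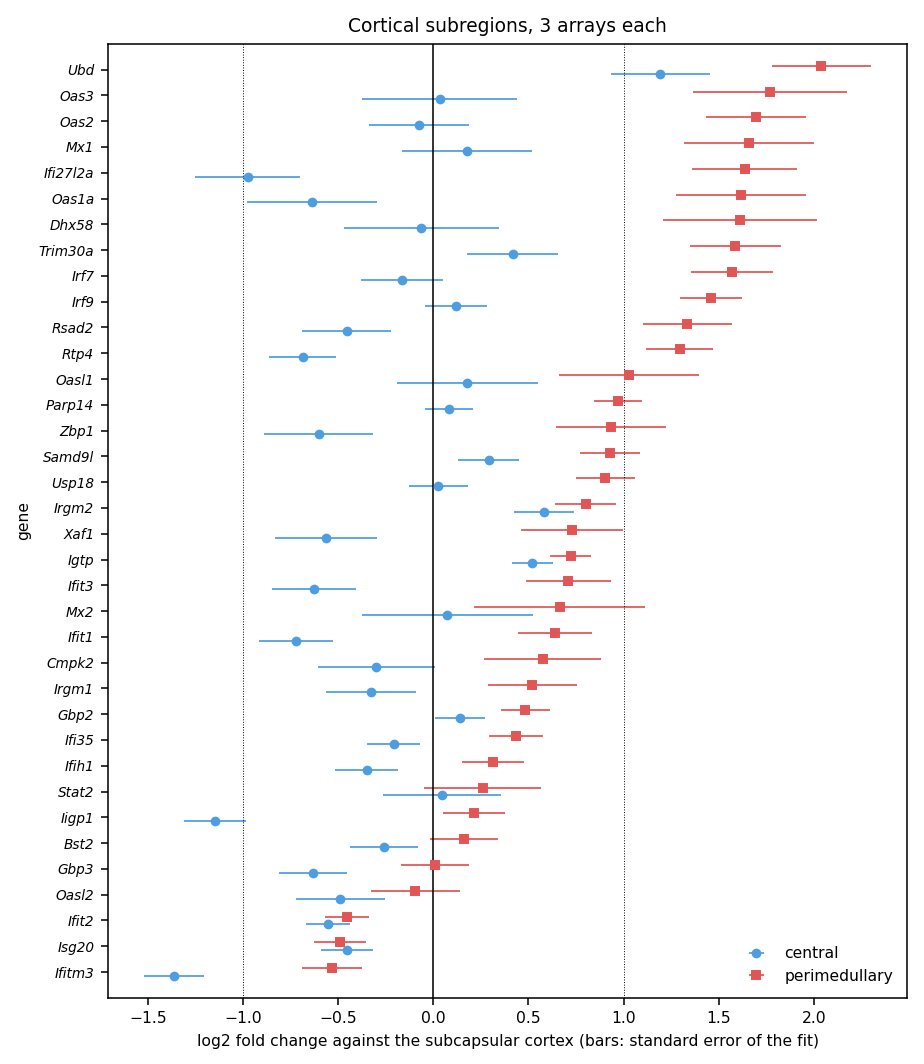
For each of the 36 genes, the x axis gives the log2 fold change of the central (circles) and perimedullary (squares) cortex against the subcapsular cortex, with the standard error of the fit as bars and dotted lines at -1 and 1. Squares lie right of circles for 35 genes, the exception being Isg20, and Ubd has the largest perimedullary value at 2.04.

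Markers of other cells also moved with the subregions. Mature thymocyte genes rose in 5 of 5 in the perimedullary against the subcapsular cortex, with a summed signal of 2006 to 2485 in subcapsular, 2951 to 3684 in central and 11479 to 12706 in perimedullary cortex. Dendritic cell genes rose in 4 of 9 (720 to 831, 1164 to 1575 and 2908 to 3492), medullary epithelial genes in 2 of 7 (818 to 1027, 1023 to 1126 and 1508 to 1559), and macrophage genes rose in 4 and fell in 1 of 10 (7476 to 8888, 8658 to 11113 and 14814 to 17432). Plasmacytoid dendritic cell genes rose in 2 of 7 (14902 to 16005, 18907 to 19850 and 18866 to 20632), but as in the other groups this sum does not measure the amount of these cells. Mesenchymal genes fell in 5 of 6 in the central against the subcapsular cortex (6898 to 8686, 2066 to 2761 and 3379 to 3894). The part of these cells in the member differences was not tested.

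**Figure D5:**
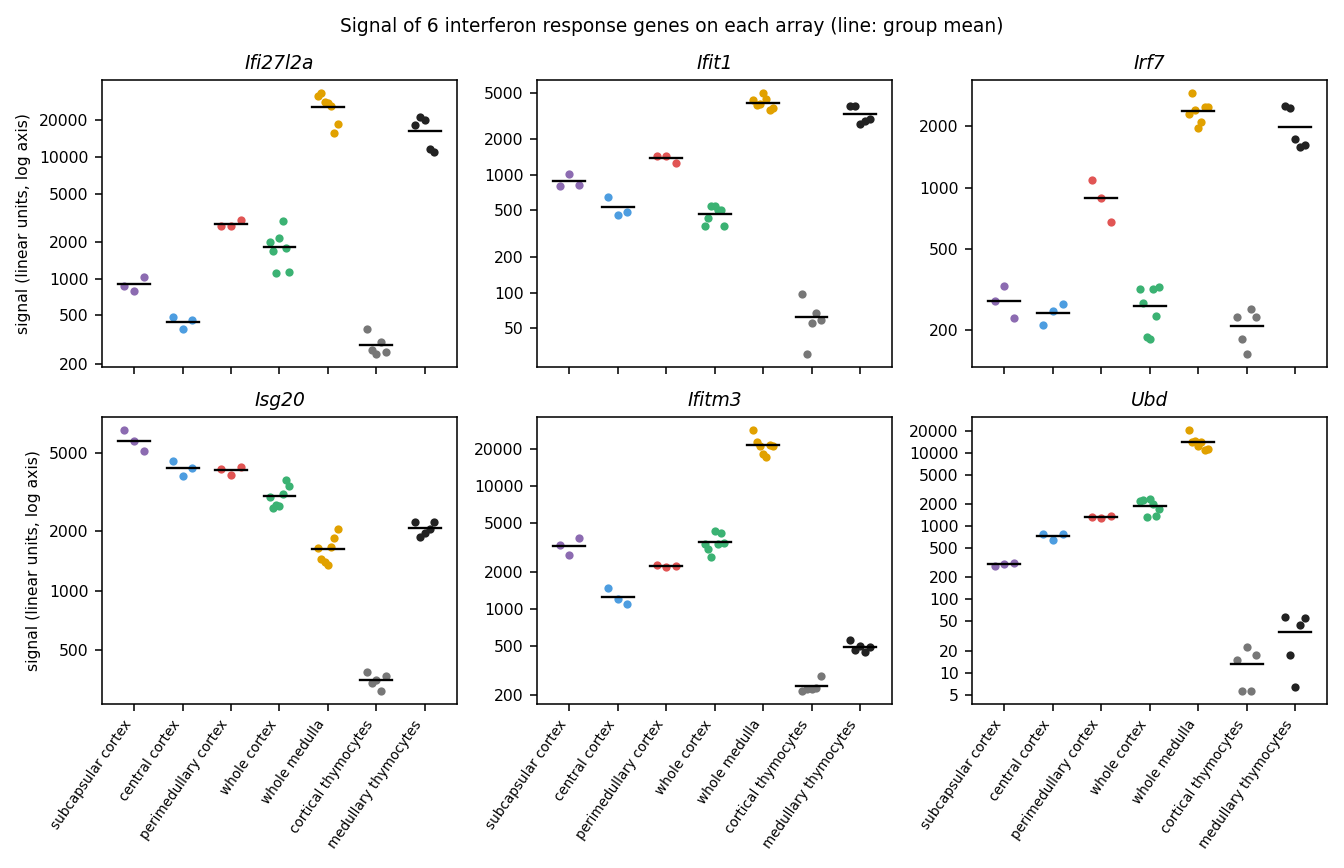
The signal of 6 genes on each array (log axis, linear units) is plotted by group, with a black line at the group mean. Ifi27l2a, Ifit1 and Irf7 are high in whole medulla and medullary thymocytes; Isg20 is highest in subcapsular cortex with a mean of 5769, and Ifitm3 and Ubd are high in whole medulla and low in both groups of sorted cells. For Isg20 all subregion arrays lie above whole cortex, so their level is not comparable with that of the other groups.

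Of the rest of the pathway, few ligands could be followed: 2 of 17 listed interferon genes were tested and 0 were called in any of these comparisons. Of 6 receptor genes, 2 rose and 1 fell in whole medulla against whole cortex, namely Ifnlr1 (1.94) and Il10rb (1.26), the chains of the lambda interferon receptor, and Ifngr1 (-1.78), the ligand-binding chain for gamma interferon, which also fell in thymocytes (-1.79). Of 8 signal transduction genes, 3 rose in tissue, Irf1 (1.69), Irf5 (2.10) and Irf8 (2.06), and 2 in thymocytes, Irf1 (1.88) and Jak1 (1.22). Of 5 inhibitors 0 rose in tissue and 1 in thymocytes, the phosphatase gene Ptpn2 (1.02). Among 11 sensors and adaptors 6 rose in tissue, led by Sting1 (3.00) and Ikbke (2.43), and 5 in thymocytes, led by Tlr7 (3.33) and Sting1 (2.89). Of 31 other interferon-induced genes 25 rose in tissue, 18 in thymocytes and 6 in perimedullary against subcapsular cortex, with Cxcl9, a chemokine, at 5.19 in tissue and Ddx60, a helicase, at 3.43 in thymocytes. Over all genes, 18.7% rose and 5.39% fell in tissue, 7.69% rose and 6.31% fell in thymocytes, and 2.94% rose in perimedullary against subcapsular cortex. The lists were not tested against these shares, and those of 5, 6 and 8 genes are short.

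For the 12 members with several probe sets, the 15 other probe sets had the sign of the chosen one in 14 cases in whole medulla against whole cortex, in 15 in thymocytes, in 13 in perimedullary against central and in 14 in perimedullary against subcapsular cortex. The sign was shared by 10 each in central against subcapsular cortex, whole cortex against cortical thymocytes and the interaction. It was shared by 7, and opposite for 8, in whole medulla against medullary thymocytes. Of the other probe sets of called genes, 3 of 9 were themselves called in the same direction in perimedullary against central cortex. In perimedullary against subcapsular cortex 2 of 6 were. Within groups, the median SD of the members on the log2 scale lay between 0.14 and 0.32 and that of all genes between 0.14 and 0.34. Cortical thymocytes replicate 1 had 30 of 36 members above its group mean, against 54.7% of all genes, and whole medulla replicate 3 had 9 of 36, against 53.2%.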

How the data were processed

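The authors deposited 1 table of linear signal intensity per probe set, made with Affymetrix Expression Console 1.0 and MAS5 per the submitters' processing notes; settings and detection calls are not given in the sources used here. The 33 arrays had been scaled one by one: the mean without the lowest and highest 2% of probe sets was 492 to 498, the median 71.9 to 163, and the value exceeded by 0.1% of probe sets 16919 to 75998. Their number limits the precision.

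Probe sets were named through the platform annotation and RefSeq; 34945 have 1 symbol, 932 several and 9160 none. Probe sets above the array median on at least 3 arrays were kept (30045), and the one with the highest mean stood for its gene. The offset, 26.2, is the median of the 33 lower quartiles. Values of log2(signal + offset) were fitted with limma 3.58.1 in R 4.3.3, with a mean for each of the 7 groups over all 33 arrays (26 residual degrees of freedom) and an intensity trend, and p-values were adjusted with Benjamini-Hochberg. The interaction is the tissue difference minus the thymocyte difference. The fit was tested on simulated data.

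The members, the lists and the tests were chosen with earlier results of these data known. All members were named. Values by array are given for the 3 members with the largest and the 3 with the smallest change in 4 comparisons (both compartment comparisons, perimedullary against subcapsular cortex, and whole medulla against medullary thymocytes) and for members called in both neighbouring steps over the subregions. Other pathway genes were named by largest called change. Alternatives were the offset, quantile normalization, the filter, the probe set rule, the groups in the fit, a replicate block, array weights, the upper tail as a block or split, the sex check and each array left out. Ddx3y had no probe set with 1 symbol, so that check used Eif2s3y, chosen after seeing the data. Replicate numbers were not taken as pairs, since the labels do not tie them to animals and same-numbered deviations did not all correlate.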

Additional observations from a re-analysis of the deposited data

Results flagged for a closer look

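Of 144 sets of 1 gene in 1 group of 5 or 7 arrays, 16 had an array far from the others by Dixon's test, where chance gives about 1 in 20.

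In whole cortex, Ifit2 was high on replicate 3 (signal 1770) and Mx2 on replicate 2 (54.1), while Oasl1 was low on replicate 3 (16.2), Irgm2 on replicate 1 (336) and Cmpk2 on replicate 5 (28.3). In cortical thymocytes, Oas1a was low on replicate 3 (32.3), Stat2 on replicate 1 (366) and Iigp1 on replicate 2 (79.0), and Ifitm3 was high on replicate 5 (283). In medullary thymocytes, Ifit2 was high on replicate 2 (1850) and Oasl1 on replicate 1 (625), while Oas3, Oasl2 and Parp14 were low on replicate 3 (251, 851 and 1910), Iigp1 on replicate 1 (1980) and Xaf1 on replicate 5 (2440).

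For 6 genes the medulla against cortex difference of tissue was called different from that of thymocytes by limma's interaction test. Tissue minus thymocytes, on the log2 scale, it was 2.28 for Ubd, 1.63 for Ifitm3, -1.16 for Oasl2, -1.85 for Ifi27l2a, -2.17 for Ifit1 and -3.35 for Isg20.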

How the results depend on the processing

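No member reversed its direction while called, under any alternative run. Stat2 made the count of members lower in whole cortex than in cortical thymocytes 1 instead of 0 with an offset of 6.55, with array weights and with the replicate block. Members with a positive interaction numbered 5 with quantile normalization and 4 with the upper tail as a block, against 2. With probe sets of plain suffix only, which cover 28 members, 2 had a negative interaction, against 4, and 1 was lower in central than in subcapsular cortex, against 2.

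With each array left out, members higher numbered 32 to 32 in whole medulla against whole cortex, 32 to 33 in medullary against cortical thymocytes, 12 to 14 in perimedullary against subcapsular, 13 to 16 in perimedullary against central, 1 to 1 in central against subcapsular cortex, 10 to 11 in whole cortex and 8 to 9 in whole medulla against their thymocytes, and 2 to 4 for the interaction. Members lower numbered 2 to 3 in central against subcapsular cortex, 0 to 1 in whole cortex against cortical thymocytes, 4 to 4 for the interaction and 0 to 0 elsewhere. The perimedullary mean was highest for 31 to 33 members and the central mean lowest for 20 to 24, and the median share was 57.9% to 65.3% in the cortex and 77.4% to 82.5% in the medulla. Over single members, 3197 results, called or not called, stayed as they were, 34 calls were gained and 9 were lost.

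The replicate block, on numbers that do not pair the arrays (same-numbered correlations from -0.08 to 0.26), changed 2 of 288 results, called or not called: Stat2 (-1.10) and Oasl1 in perimedullary against subcapsular cortex (1.03, adjusted p = 0.034, limma). In central against subcapsular cortex each of 3 pairs correlated best with its own number, at 0.0084 to 0.012. In perimedullary against subcapsular cortex, Oasl1 also passed with a stricter filter, array weights, a fit of the groups compared, the upper tail as a block or only the arrays outside the wide-tail set. Within the wide-tail arrays, only whole medulla against whole cortex and against medullary thymocytes could be fitted. There 72 of 72 results of members, called or not called, stayed as they were.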
